A study of Homo sapiens with 9 samples.

Results

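Aminoacyl-tRNA synthetases join each amino acid to its transfer RNA (tRNA), the step that gives the genetic code its meaning. Most amino acids are served by separate nuclear genes for the cytosolic enzyme (suffix 1) and the mitochondrial enzyme (suffix 2), and GARS1 and KARS1 each supply both compartments. Several cytosolic enzymes sit in a multisynthetase complex on the scaffold proteins AIMP1, AIMP2 and EEF1E1. Cells short of amino acids or under endoplasmic reticulum stress raise many cytosolic synthetase genes through ATF4, a transcription factor that acts at the C/EBP-ATF response element.

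The members were the genes whose single annotated symbol is that of a synthetase or of one of these scaffolds, each read from its own probe set. Of 41 such genes, 32 were measured among the 14232 genes tested: 17 cytosolic synthetases, 12 mitochondrial synthetases, the 2 dual enzymes and AIMP1. Another 5 (FARSB, EARS2, SARS2, VARS2 and YARS2) were on probe sets annotated to several genes and were left out, and the rest, AIMP2 and EEF1E1 among them, were not analysed here. No member had more than 1 probe set of its own.

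The arrays read RNA of PANC-1, a line of human pancreatic ductal carcinoma cells, collected 72 h after the treatment, in 3 groups of 3 biological replicates. The miR-520f group was transfected with a miR-520f mimic at 20 nM and the negative control group with a control mimic at 20 nM, both carried by the lipid RNAiMAX. The group called non-transfected was given that lipid without RNA, so all arrays share exposure to it. Values are log2 intensities made by the authors with RMA, and 1 unit is a doubling. What set the biological replicates apart is not described in the labels, so a p-value here covers the spread between arrays of 1 cell line. In such bulk RNA, fewer expressing cells and less RNA per cell cannot be told apart.

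Mimics are synthetic microRNA duplexes, and the strand loaded into Argonaute lowers transcripts that pair with its seed, bases 2 to 8. The labels do not give the arm that was copied, so both mature sequences of human miR-520f are shown (RefSeq, GRCh38.p14, + strand, chr19:53682213-53682234 for the 3p arm and chr19:53682173-53682194 for the 5p arm), with the seed in capitals.
hsa-miR-520f-3p: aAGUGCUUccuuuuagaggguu
hsa-miR-520f-5p: cCUCUAAAgggaagcgcuuucu
The 2 arms have different seeds. Pairing of these seeds with member transcripts was not tested.

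Among the line's markers, KRT8 (11.27 to 11.77), VIM (11.83 to 12.21), KRT18, KRT19 and EPCAM were bright on all arrays, and KRT7 was dim (3.43 to 3.56). Of 9 measured markers of other cell types, 7 lay between 2.88 and 4.04, while CD68 (7.24 to 8.90) and COL1A1 (7.06 to 8.23) were brighter. CD68 fell with miR-520f (-0.90 against the negative control and -1.31 against non-transfected cells) and between the controls (-0.41), and COL1A1 fell between the controls (-0.59). The summed linear intensity of these 9 was 429.1 to 466.8 in miR-520f cells, 487.1 to 620.6 in negative control cells and 715 to 840.2 in non-transfected cells. CD68 and COL1A1 make up most of that sum, and the other 7 were called in no comparison. Of the line's own markers EPCAM rose (1.68 and 1.57 against the same controls) and KRT19 (-0.68 and -0.75) and VIM (-0.24 and -0.23) fell against both. The part of these shifts in the member results was not tested. Array medians were 4.22 to 4.34. Over the members, replicate 1 of the negative control deviated most from its group mean (0.18, root mean square, against 0.0514 to 0.156 on the other 8 arrays).

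Against both controls, 5 members rose and 3 fell with miR-520f. The falls were in the cytosolic enzymes for tryptophan (WARS1), histidine (HARS1) and glutamine (QARS1), and the rises in the cytosolic enzymes for alanine (AARS1), arginine (RARS1) and leucine (LARS1) and the mitochondrial enzymes for asparagine (NARS2) and arginine (RARS2). These 8 are 25% of the members, where 18% of all tested genes changed against both controls, 9.37% upward and 8.61% downward. A gene was called at an adjusted p under 0.05 in limma over all tested genes, and a change against both controls needed a call in each comparison with the same sign. The count against both controls was 4 without miR-520f replicate 1, 5 without miR-520f replicate 3 and 5 without negative control replicate 2, and it was 9 without negative control replicate 1. The share of all genes was not counted in those fits.

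In the separate comparisons, 9 members rose and 4 fell against the negative control (40.6% called, where 28.1% of all genes were), and 5 rose and 3 fell against non-transfected cells (25% called, where 27.6% of all genes were). The negative control mimic itself changed 1 member against non-transfected cells, WARS1, which fell (3.12%, where 15.3% of all genes were called and 8.28% were called lower). At an unadjusted p under 0.05, 10 members differed between the controls (31.2%, against 25.9% of all genes). All 3 miR-520f arrays lay above all 6 control arrays for 7 members (21.9%, against 13.2% of all genes) and below them for 4 (12.5%, against 12.1%), which are the 8 named above with MARS1 and TARS3 among those above and AARS2 among those below. Set against the negative control arrays alone, 16 members were apart (50%, against 39.4% of all genes), and 19 were apart from the non-transfected arrays alone (59.4%, against 41.1%). Between the control groups, with no miR-520f, 13 members were apart (40.6%, against 27% of all genes). Without miR-520f replicate 1 or 3, or negative control replicate 2, the calls against the negative control numbered 7, 8 and 8. The calls between the controls numbered 3 without negative control replicate 1 or 3, and 2 without miR-520f replicate 2 or non-transfected replicate 3. Shares of all genes were not counted in these fits. The comparisons share the miR-520f arrays, so their counts are not independent.

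**Figure D1:**
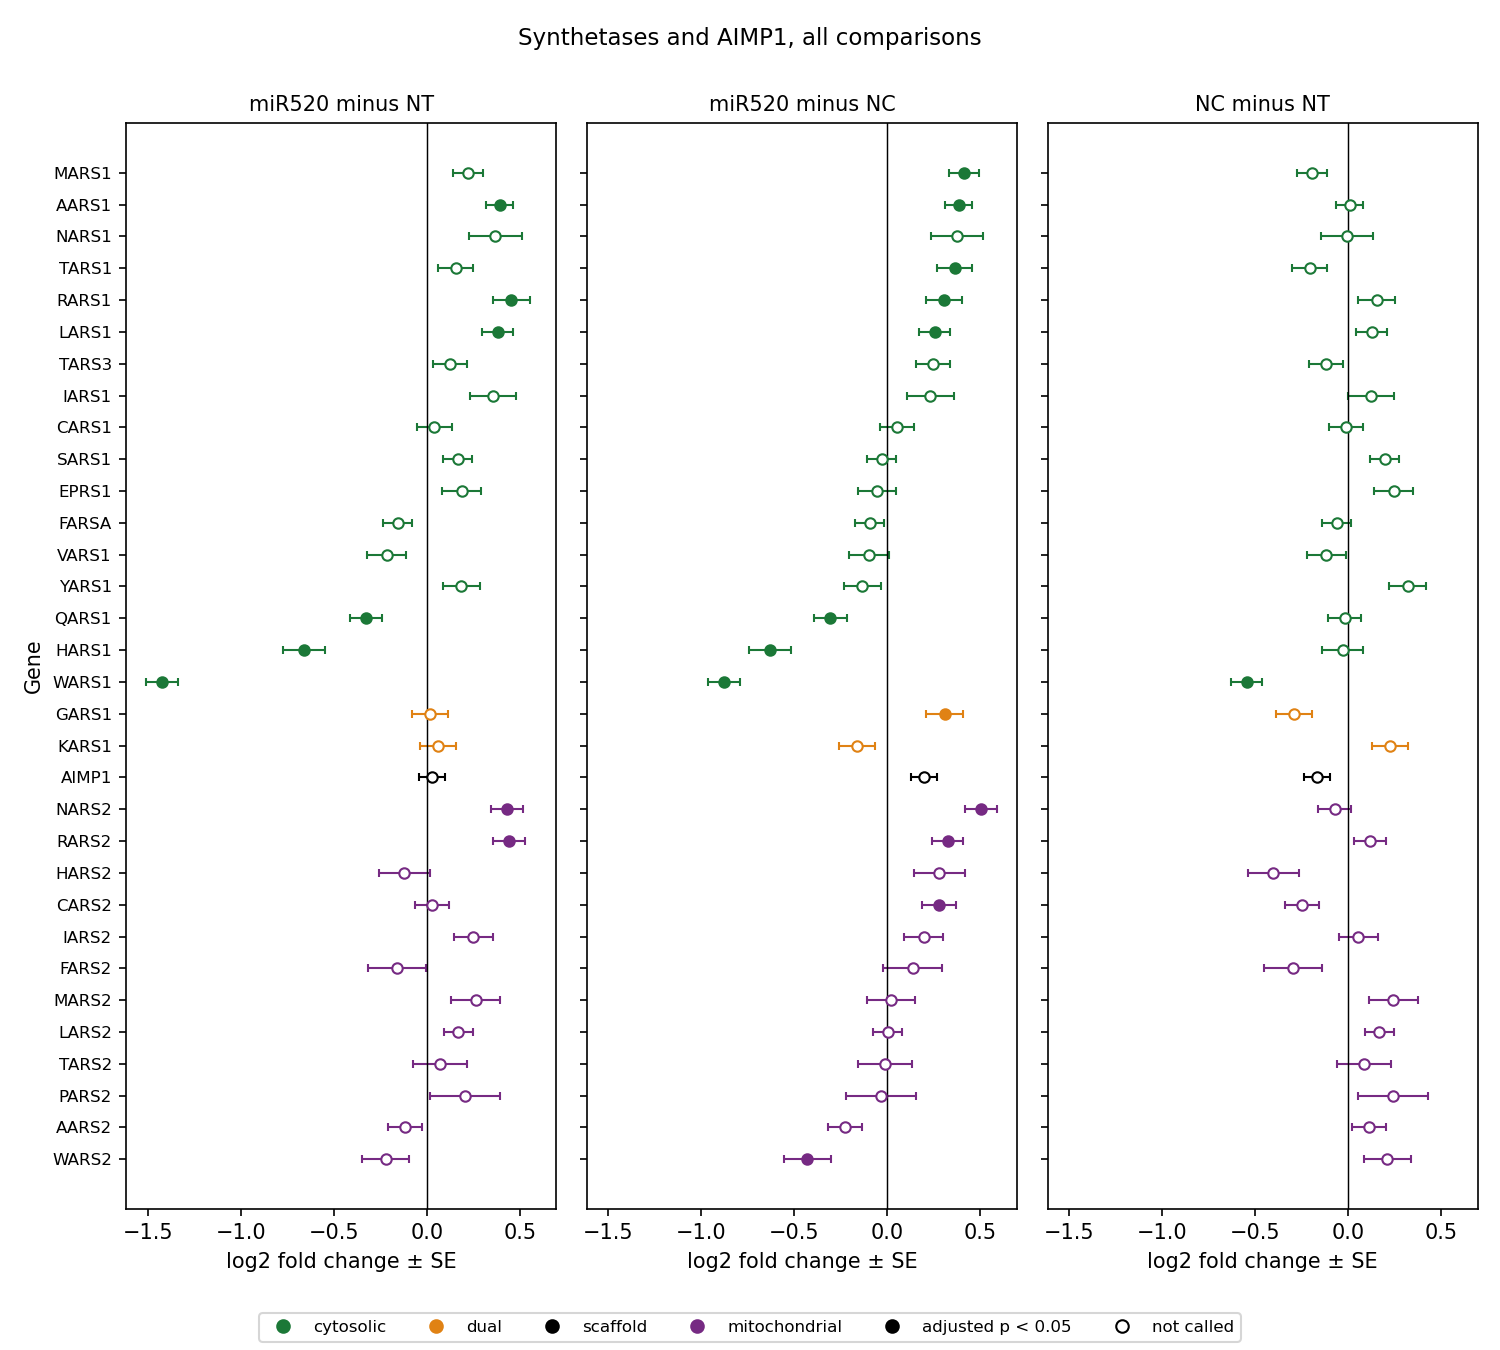
Log2 fold changes (points) with their limma standard errors (bars) for the 32 measured members, rows grouped by class, in the 3 comparisons named above the panels; filled points passed the adjusted threshold of 0.05. WARS1 and HARS1 lie far to the left in both miR-520f panels (WARS1 at -1.43 and -0.88, HARS1 at -0.66 and -0.63), and in the panel of the control mimic WARS1 at -0.55 is the single filled point.

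WARS1, the cytosolic tryptophanyl-tRNA synthetase, showed the largest fall among the members. It is also known as a gene that interferon gamma strongly induces. Its values (probe set 3579546) were 7.62, 7.62 and 7.69 in miR-520f cells, against 8.35, 8.63 and 8.60 in negative control cells and 9.13, 9.09 and 9.00 in non-transfected cells. The 3 groups did not overlap, and the negative control arrays stood between the other two groups. Its log2 fold change was -0.88 against the negative control (SE 0.08, limma adjusted p = 1.95e-05) and -1.43 against non-transfected cells (SE 0.08, limma adjusted p = 7.59e-07), a level 1.84-fold and 2.69-fold lower. The control mimic also lowered WARS1, with a log2 fold change of -0.55 between negative control and non-transfected cells (SE 0.08, limma adjusted p = 0.00153). The size of the WARS1 fall with miR-520f therefore differs with the control chosen. The marker CD68 moved in the same order of groups.

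HARS1, the cytosolic histidyl-tRNA synthetase, a known autoantigen of myositis, fell by similar amounts against each control. It measured 6.31, 6.43 and 6.63 in miR-520f cells (probe set 2878474). The values were 7.21, 7.17 and 6.89 in negative control cells and 7.25, 7.07 and 7.03 in non-transfected cells. All miR-520f arrays were below all control arrays, and the control groups overlapped. The log2 fold changes were -0.63 against the negative control (SE 0.11, limma adjusted p = 0.00125) and -0.66 against non-transfected cells (SE 0.11, limma adjusted p = 0.000987).

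HARS1 and HARS2 lie head to head on chromosome 5, with transcription start sites 85 bases apart in RefSeq, so the 84 bases between them are upstream of both genes. They are shown because the partners of this shared upstream region gave different readings (GRCh38.p14, chr5:140691371-140691454, + strand, the strand of HARS2).
HARS1-HARS2 intergenic: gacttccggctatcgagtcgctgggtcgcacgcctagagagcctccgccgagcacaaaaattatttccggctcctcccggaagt
HARS2, the mitochondrial partner, had 5.77, 5.63 and 5.94 in miR-520f cells, against 5.76, 5.41 and 5.34 in negative control cells and 6.15, 5.71 and 5.85 in non-transfected cells. Its groups overlapped, and it was not called against the negative control (log2 fold change 0.28, SE 0.14, limma adjusted p = 0.174) or non-transfected cells (-0.12, SE 0.14, limma adjusted p = 0.639). Taken within arrays, the log2 difference HARS1 minus HARS2 was lower with miR-520f by a shift of -0.91 against the negative control and -0.54 against non-transfected cells (SE of a shift 0.11, n = 3 arrays a group, no test). Between the controls the same difference shifted by 0.37, with HARS2 at -0.40 in negative control against non-transfected cells (limma adjusted p = 0.0778, and 0.0207 without negative control replicate 1).

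QARS1, the glutaminyl-tRNA synthetase and an enzyme of the multisynthetase complex, fell by less. It measured 9.17, 9.19 and 9.25 in miR-520f cells, against 9.54, 9.62 and 9.38 in negative control cells and 9.68, 9.44 and 9.48 in non-transfected cells. The miR-520f arrays were below all 6 control arrays. The log2 fold changes were -0.31 against the negative control (SE 0.09, limma adjusted p = 0.0218) and -0.33 against non-transfected cells (SE 0.09, limma adjusted p = 0.0162). Single arrays decided the QARS1 calls: without miR-520f replicate 1 or 2 the adjusted p was 0.0794 or 0.066 against the negative control and 0.0626 or 0.0511 against non-transfected cells. Without replicate 2 of the negative control it was 0.0883 in that comparison, and without replicate 1 of the non-transfected cells 0.06 in the other.

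**Figure D2:**
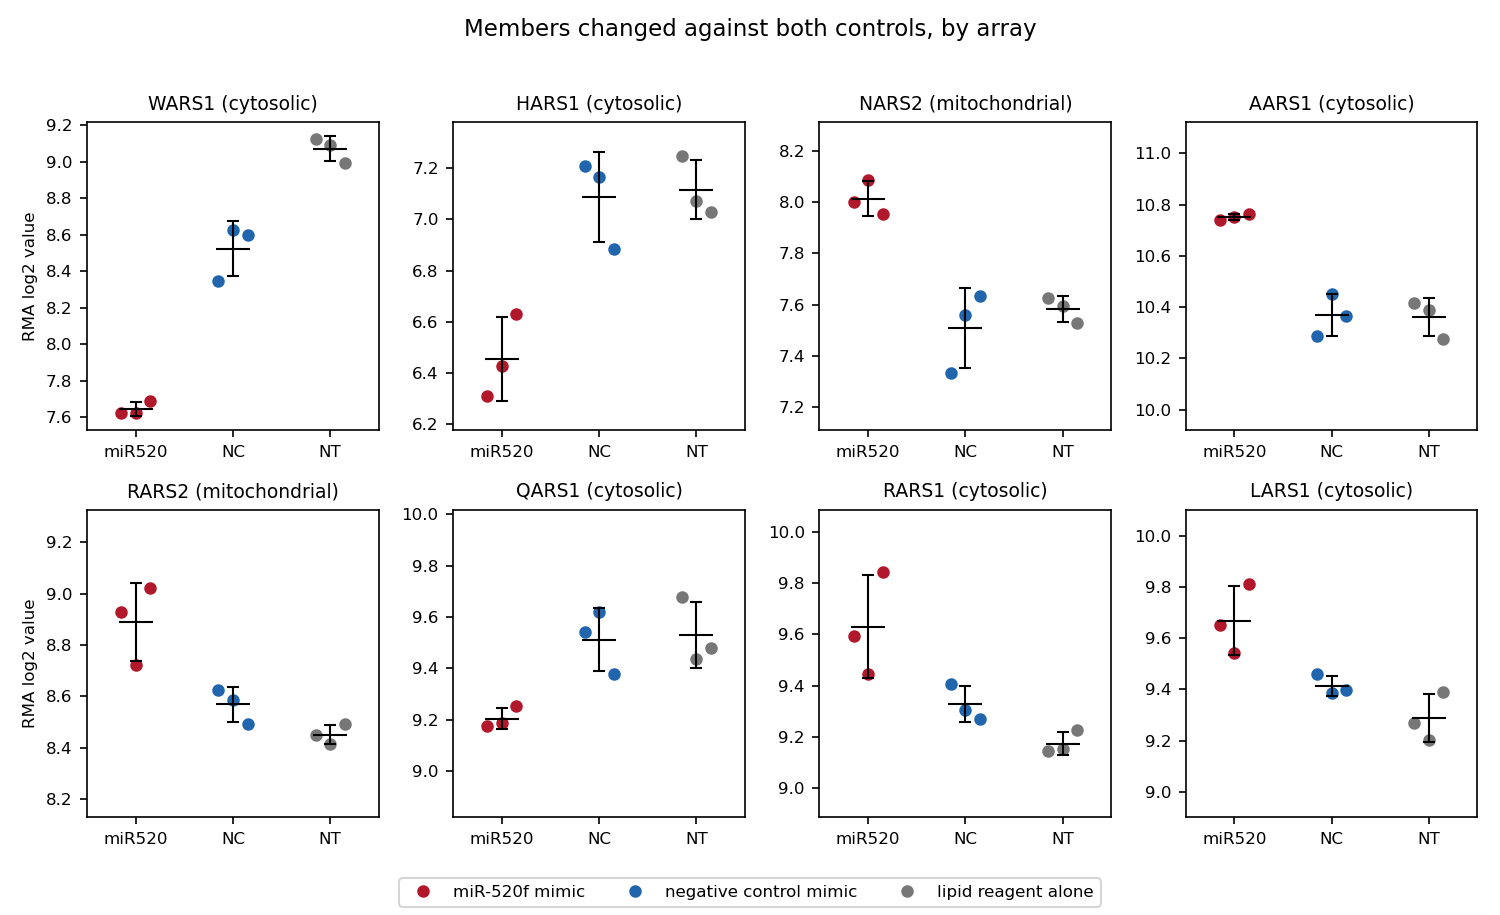
RMA log2 values (vertical axes, a separate range for each gene) of the 8 members changed against both controls, with 1 point per array and the mean ± SD of 3 arrays in black; miR520 is the miR-520f mimic, NC the negative control mimic and NT the lipid reagent alone. In each panel the 3 miR-520f points lie on one side of all 6 control points, below them for WARS1, HARS1 and QARS1.

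AARS1, the alanyl-tRNA synthetase, had the tightest miR-520f values among the rises. It measured 10.74, 10.75 and 10.76 in miR-520f cells (probe set 3697015). Negative control cells had 10.29, 10.45 and 10.37, and non-transfected cells had 10.42, 10.39 and 10.28. No miR-520f array overlapped a control array, while the control groups overlapped. Its log2 fold changes were 0.38 against the negative control (SE 0.07, limma adjusted p = 0.00185) and 0.39 against non-transfected cells (SE 0.07, limma adjusted p = 0.00172).

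RARS1, the arginyl-tRNA synthetase, and LARS1, the leucyl-tRNA synthetase, also known as a leucine sensor of the mTOR pathway, belong to the multisynthetase complex, and both rose. RARS1 had 9.60, 9.45 and 9.84 in miR-520f cells, against 9.41, 9.31 and 9.27 in negative control cells and 9.14, 9.15 and 9.23 in non-transfected cells. LARS1 had 9.65, 9.54 and 9.81 in miR-520f cells, against 9.46, 9.39 and 9.40 in negative control cells and 9.27, 9.20 and 9.39 in non-transfected cells. In both genes replicate 2 was the lowest miR-520f array and still exceeded every control array. Against non-transfected cells the log2 fold changes were 0.45 for RARS1 (SE 0.10, limma adjusted p = 0.00444) and 0.38 for LARS1 (SE 0.08, limma adjusted p = 0.00567). Against the negative control RARS1 read 0.30 (SE 0.10, limma adjusted p = 0.0383). LARS1 read 0.25 there (SE 0.08, limma adjusted p = 0.045). The calls against the negative control were lost without miR-520f replicate 1 (adjusted p = 0.0812 for RARS1 and 0.106 for LARS1) or 3 (0.137 and 0.169), without negative control replicate 2 (0.0984 and 0.118) or 3 (0.0994 and 0.095), and without non-transfected replicate 2 (0.0574 and 0.0585), and that of LARS1 also without non-transfected replicate 1 (0.0547).

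Of the 7 measured enzymes of the multisynthetase complex, these 2 rose and QARS1 fell against both controls (42.9%). Of all genes 18% changed against both, 9.37% upward and 8.61% downward. MARS1, the methionyl-tRNA synthetase, rose against the negative control (log2 fold change 0.41, SE 0.08, limma adjusted p = 0.00247) and was not called against non-transfected cells (0.22, SE 0.08, limma adjusted p = 0.0667). Its values were 10.69, 10.77 and 10.74 in miR-520f cells, 10.16, 10.41 and 10.40 in negative control cells and 10.54, 10.53 and 10.47 in non-transfected cells, with all miR-520f arrays above all controls. The complex enzymes EPRS1 (glutamate and proline; -0.06 against the negative control and 0.19 against non-transfected cells), IARS1 (isoleucine; 0.23 and 0.36 in the same order) and KARS1 (lysine; -0.16 and 0.06) were called in neither comparison. AIMP1, the one scaffold measured, had 8.49, 8.39 and 8.54 in miR-520f cells, 8.26, 8.31 and 8.26 in negative control cells and 8.49, 8.46 and 8.38 in non-transfected cells. It was not called against the negative control (log2 fold change 0.20, SE 0.07, limma adjusted p = 0.0593), against non-transfected cells (0.03, SE 0.07, limma adjusted p = 0.87) or between the controls (-0.17, SE 0.07, limma adjusted p = 0.147).

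In mitochondria, 2 of 12 measured synthetases rose and 0 fell against both controls (16.7%), against 3 rises and 3 falls among 17 cytosolic enzymes (35.3%), where 18% of all genes changed. The difference between the classes was not tested. NARS2, the mitochondrial asparaginyl-tRNA synthetase, had 8.0, 8.09 and 7.96 in miR-520f cells, against 7.34, 7.56 and 7.63 in negative control cells and 7.63, 7.59 and 7.53 in non-transfected cells. All miR-520f arrays were above all control arrays. Its log2 fold changes were 0.50 against the negative control (SE 0.09, limma adjusted p = 0.00106) and 0.43 against non-transfected cells (SE 0.09, limma adjusted p = 0.00303). RARS2, the mitochondrial arginyl-tRNA synthetase, had 8.93, 8.72 and 9.02 in miR-520f cells, against 8.63, 8.59 and 8.49 in negative control cells and 8.45, 8.41 and 8.49 in non-transfected cells. The groups were apart, with log2 fold changes of 0.32 against the negative control (SE 0.09, limma adjusted p = 0.0144) and 0.44 against non-transfected cells (SE 0.09, limma adjusted p = 0.00245). The RARS2 call against the negative control was lost without miR-520f replicate 1 (adjusted p = 0.0606) or 3 (0.0615).

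Another 5 members were called against the negative control and not against non-transfected cells: MARS1, TARS1, GARS1, CARS2 and WARS2. The share of all genes called in this way was not counted. In the contrast between the controls 0 of these 5 were called, but for 4 all negative control arrays lay below all non-transfected arrays. Their log2 fold changes there were -0.19 for MARS1, -0.21 for TARS1, -0.29 for GARS1 and -0.25 for CARS2. Of all 14232 genes, 2088 lay below in this way, and 27% were apart in either direction. These 4 were picked as high against the negative control, so a low negative control group is part of that choice. GARS1 was called there without negative control replicate 1 (limma adjusted p = 0.035) and CARS2 without non-transfected replicate 3 (limma adjusted p = 0.042). TARS1, the cytosolic threonyl-tRNA synthetase, had 9.57, 9.47 and 9.86 in miR-520f cells, 9.29, 9.30 and 9.23 in negative control cells and 9.47, 9.44 and 9.53 in non-transfected cells. The miR-520f arrays of TARS1 were above the negative control arrays and overlapped the non-transfected ones. Its log2 fold changes were 0.36 against the negative control (SE 0.10, limma adjusted p = 0.0146) and 0.15 against non-transfected cells (SE 0.10, limma adjusted p = 0.315). GARS1, the dual glycyl-tRNA synthetase (0.31 and 0.01 in the same order), and CARS2, the mitochondrial cysteinyl-tRNA synthetase (0.28 and 0.03), had adjusted p of 0.0362 and 0.045 against the negative control in limma. WARS2, the mitochondrial tryptophanyl-tRNA synthetase, fell against the negative control (-0.43, SE 0.13, limma adjusted p = 0.0247) and was not called against non-transfected cells (-0.22, SE 0.13, limma adjusted p = 0.27). Its miR-520f values (4.16, 3.87 and 4.02) lay below the lowest array median, 4.22, so its change is poorly measured. The calls of GARS1, CARS2 and WARS2 were each lost on leaving out any of several single arrays, with adjusted p up to 0.136, 0.158 and 0.0991; for WARS2 the arrays were miR-520f replicates 2 and 3 and negative control replicates 1 and 2.

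The remaining 19 members passed in neither miR-520f comparison. The 9 cytosolic ones (CARS1, EPRS1, FARSA, IARS1, NARS1, SARS1, TARS3, VARS1 and YARS1) had log2 fold changes of -0.13 to 0.37 against the negative control and -0.22 to 0.37 against non-transfected cells. NARS1, the asparaginyl-tRNA synthetase, had the highest of these, 0.37 in each comparison, with an SE of 0.14 and limma adjusted p-values of 0.0753 against the negative control and 0.0829 against non-transfected cells. The 8 mitochondrial ones (AARS2, FARS2, HARS2, IARS2, LARS2, MARS2, PARS2 and TARS2) ran from -0.23 to 0.28 against the negative control and from -0.16 to 0.26 against non-transfected cells. AARS2 lay at 3.75 to 4.18 on all arrays, below the array medians. The last 2 were KARS1 and AIMP1.

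The median log2 fold change was 0.05 over cytosolic and 0.08 over mitochondrial enzymes against the negative control, and 0.17 over cytosolic and 0.12 over mitochondrial enzymes against non-transfected cells. Over all tested genes the medians were -0.03 in each of these comparisons. The cytosolic minus mitochondrial difference of medians was -0.03 against the negative control and 0.05 against non-transfected cells, and the same quantity varied between replicate arrays with a pooled SD of 0.14. Both values are smaller than that SD, which includes replicate 1 of the negative control. Replicate 1 of the negative control stood apart in this quantity, at -0.20 (its median cytosolic minus its median mitochondrial deviation from the mean over arrays) against 0.14 and 0.17 for replicates 2 and 3, and without it the difference against that group was -0.26. Replicates 2 and 3 lay above all 3 miR-520f arrays (-0.03 to 0.05) in this quantity, so its reading against the negative control rests on 1 array. Cytosolic enzymes ran from -0.88 to 0.41 against the negative control and from -1.43 to 0.45 against non-transfected cells. WARS1 was the low end of both ranges, and HARS1 was next lowest at -0.63 and -0.66. Mitochondrial enzymes ran from -0.43 to 0.50 and from -0.22 to 0.44 in the same order.

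For 12 pairs both the cytosolic and the mitochondrial enzyme of an amino acid were measured. The cytosolic partner had the higher log2 fold change in 5 pairs against the negative control and in 7 against non-transfected cells. The arginine pair moved together, with 0.30 for RARS1 and 0.32 for RARS2 against the negative control and 0.45 and 0.44 against non-transfected cells. The asparagine pair read 0.37 for NARS1 and 0.50 for NARS2 against the negative control and 0.37 and 0.43 against non-transfected cells, with NARS2 alone passing the test. The alanine pair read differently, with AARS1 at 0.38 and AARS2 at -0.23 against the negative control and 0.39 and -0.12 against non-transfected cells, a shift of 0.61 and 0.51 (SE 0.11). AARS2 lay below the array medians and near the level of dim markers of other cell types, so its own change, and with it the shift, is poorly measured. In the tryptophan pair both readings were negative, -0.88 for WARS1 and -0.43 for WARS2 against the negative control and -1.43 and -0.22 against non-transfected cells, a shift of -0.45 and -1.21 (SE 0.18). WARS2 was dim too, at 3.87 to 4.59 over all arrays, so its part of that shift is poorly measured. Against the negative control the methionine pair shifted by 0.40 (SE 0.19) and the threonine pair by 0.38 (SE 0.21). Against non-transfected cells these 2 pairs shifted by -0.04 and 0.08.

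**Figure D3:**
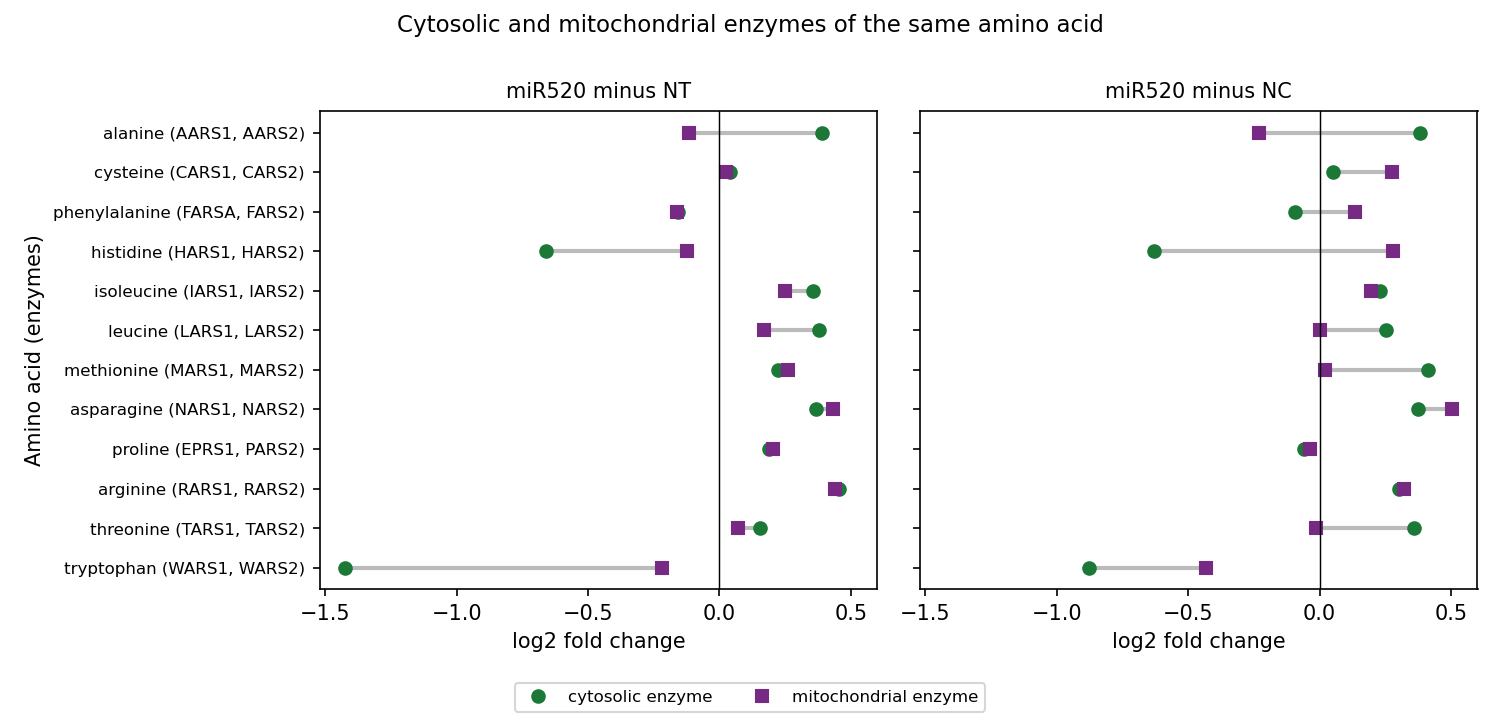
Log2 fold changes of the cytosolic enzyme (circle) and the mitochondrial enzyme (square) for the 12 measured pairs, 1 row per amino acid joined by a grey line, against non-transfected cells on the left and against the negative control on the right. Long lines mark tryptophan, histidine and alanine in both panels, and the arginine symbols lie together at 0.30 to 0.45. In the right panel the methionine and threonine lines are nearly as long as that of tryptophan.

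Promoters of the members were searched for TGATGNAA, the core of the C/EBP-ATF response element, on both strands of the 300 bases from 250 before to 50 after each RefSeq start (GRCh38.p14). Promoters were found for 27 members, and 6 held the motif (22.2%): AARS1, CARS1, IARS1, MARS1, NARS1 and TARS1. All 6 are cytosolic, of 13 cytosolic promoters, and 0 of 11 mitochondrial promoters held it. The motif occurred in 3.62% of all 35116 promoters of that length and in 2.36% of the 11385 promoters of genes with a probe set of their own. A match is a description of letters and no evidence of binding. The stretches are shown with the motif in capitals (TGATGCAA, or TTGCATCA where it lies on the other strand), each on the strand of its gene. They were chosen because these members read positive in both miR-520f comparisons with all arrays in the fit.
AARS1, chr16:70289654-70289733, - strand: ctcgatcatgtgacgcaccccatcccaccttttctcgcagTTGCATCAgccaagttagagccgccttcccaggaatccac
CARS1, chr11:3057407-3057436, - strand: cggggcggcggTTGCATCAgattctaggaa
IARS1, chr9:92293698-92293750, - strand: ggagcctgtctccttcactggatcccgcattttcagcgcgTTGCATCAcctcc
MARS1, chr12:57488053-57488082, + strand: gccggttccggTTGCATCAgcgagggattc
NARS1, chr18:57621804-57621833, - strand: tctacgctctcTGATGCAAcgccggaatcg
TARS1, chr5:33440956-33440985, + strand: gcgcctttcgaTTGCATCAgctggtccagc
In all 6 the variable letter is the same, giving TGATGCAA. In AARS1 the motif begins 187 bases before the start, and in the others it begins between 13 bases before and 15 bases after it.

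The 6 members with the motif had positive log2 fold changes in both comparisons, 0.05 to 0.41 against the negative control (median 0.37, 3 called higher) and 0.04 to 0.39 against non-transfected cells (median 0.29, 1 called higher). AARS1 was the member of these that changed against both controls. Of all 32 members, 17 (53.1%) read positive against both controls, as did 4331 of the 14232 genes tested. The 7 cytosolic members whose promoter was found without it ran from -0.88 to 0.30 against the negative control (median -0.10, 1 called higher and 3 lower) and from -1.43 to 0.45 against non-transfected cells (median -0.16, 1 called higher and 3 lower). CARS1 held the motif and read 0.05 and 0.04. Without negative control replicate 1, CARS1 read -0.06 and IARS1 0.07 against that group, so the shared sign there rests on 1 array. RARS1, NARS2 and RARS2 rose against both controls without the motif in their windows. Over all 21 members whose promoter was found without it, the median was 0.00085 against the negative control (5 called higher and 4 lower). Against non-transfected cells the median of these 21 was 0.06 (3 called higher and 3 lower). Whether the motif goes with the rises was not tested.

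**Figure D4:**
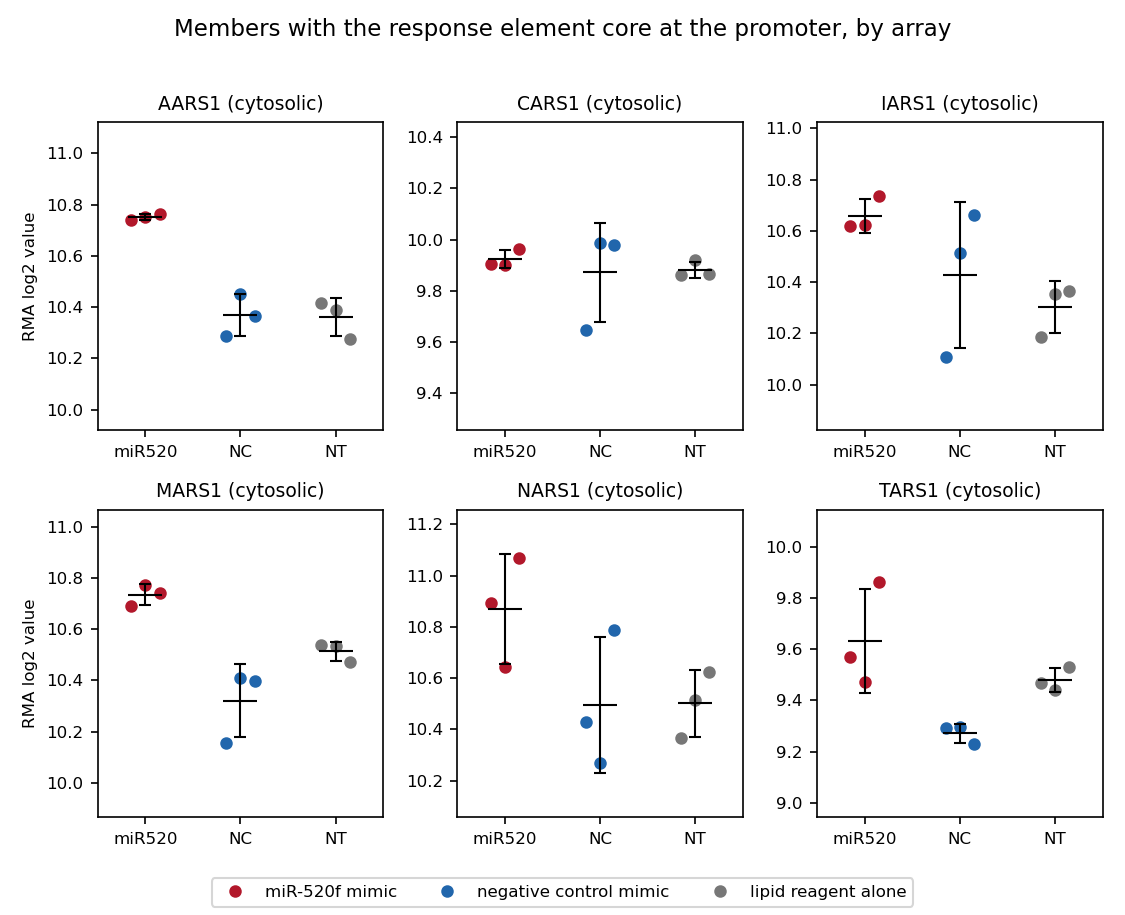
RMA log2 values (vertical axes, a separate range for each gene) of the 6 members whose promoter holds TGATGNAA, with 1 point per array and the mean ± SD of 3 arrays in black, for the miR-520f mimic (miR520), the negative control mimic (NC) and the lipid reagent alone (NT). For AARS1 and MARS1 all miR-520f points lie above all control points, and for CARS1 the groups overlap; the low CARS1, IARS1 and MARS1 points among the negative controls belong to its replicate 1.

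Other genes of the amino acid response were read from a list of 35 genes, of which 31 were measured. Against both controls 7 rose and 5 fell (38.7%, where 18% of all genes changed). Against non-transfected cells 13 rose and 6 fell (61.3% called, where 27.6% of all genes were). There were 8 rises and 9 falls against the negative control (54.8% called, where 28.1% of all genes were). The list's median log2 fold change was 0.02 against the negative control and 0.16 against non-transfected cells. STC2, a secreted glycoprotein (0.86 against the negative control and 1.42 against non-transfected cells), SLC7A3, a cationic amino acid transporter that was dim on all arrays (0.85 and 0.92), and DDIT3, the stress transcription factor CHOP (0.64 and 1.09), rose against both. ATF5, a transcription factor of the ATF4 family, fell (-0.82 and -0.65). The other genes that rose against both controls were NUPR1, JDP2, TRIB3 and SLC3A2. The others that fell were DDIT4, EIF4EBP1, SLC6A9 and VLDLR. ATF4 itself was called in neither comparison (-0.20, limma adjusted p = 0.463, and -0.22, limma adjusted p = 0.443). The arrays read its transcript and not its protein. ASNS, asparagine synthetase, rose against non-transfected cells (0.47, limma adjusted p = 0.016) and not against the negative control (0.08, limma adjusted p = 0.729). ATF4 and ASNS were named after their values were seen. The list therefore moved in both directions, as the synthetases did. The negative control mimic itself raised 6 and lowered 1 of these genes against non-transfected cells (22.6% called, where 15.3% of all genes were and 7% were called higher). STC2 (0.56) and DDIT3 (0.45) were among those it raised. Promoters were found for 26 genes of the list, and 5 held the motif (19.2%): ASNS, ATF3, CHAC1, SLC3A2 and SLC7A1. Of these, SLC3A2 alone rose against both controls (0.32 against the negative control and 0.43 against non-transfected cells). SLC7A1 read -0.25 and 0.02 in the same order.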

How the data were processed

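Log2 values of 22011 probe sets on 9 arrays were deposited by the authors as a single table. RMA, Partek 6.6 and the build hg18 are named in the submitters' processing notes, without settings, and filters are not given in the sources used here. RMA normalizes arrays to a common distribution, so shifts shared by most genes are removed. Probe sets were named through the platform annotation (14432 with 1 symbol, 2408 with several, 5171 not named here). Entrez identifiers matched 14404 to RefSeq, and 0 symbols changed. The probe set with the highest mean stood for a gene, giving 14232 genes. Groups came from the sample titles. limma 3.58.1 in R 4.3.3 fitted 1 mean per group to all 9 arrays (6 residual degrees of freedom, empirical Bayes), with Benjamini-Hochberg adjustment over all genes. The fit was tested on simulated data. The study used ANOVA in Partek, per the series' design text; an unmoderated contrast was an alternative, among 18. Members, lists and motif were chosen with earlier results of these data known. All members are named; full values are given for those changed against both controls, AIMP1 and those changed between controls, and for others singled out. From each further list at most 4 genes are named, those with the largest smaller fold change, apart from the amino acid response list. There all genes changed against both controls are named, with ATF4 and ASNS added after their values were seen. The genes of the amino acid response list whose promoter held the motif are also named. The number of arrays limits precision.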

Additional observations from a re-analysis of the deposited data

How the results depend on the processing

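The 22 log2 fold changes called in members kept their direction under all 18 alternatives. Of these 396 recomputed values, 348 stayed past the threshold and 48 did not. WARS1, HARS1, AARS1 and NARS2 changed against both controls under all 18, RARS2 under 16, QARS1 under 13, RARS1 under 11 and LARS1 under 9. The number changed against both controls was 5 with an unmoderated contrast, 12 with array weights and 4 to 9 on leaving out single arrays. The share of all genes called was not counted under any alternative, so the member counts here cannot be set against one. The number called against the negative control was 7 with an unmoderated contrast, 18 with array weights and 7 to 13 without single arrays. Against non-transfected cells it was 8 in the main fit, 11 after further quantile normalization and 12 with centred arrays. It was 11 with only the arrays of the groups compared, 20 with array weights and 7 to 10 without single arrays. Between the controls it was 2 after further quantile normalization, with centred arrays or without the dimmest 25% of genes, 7 with array weights, and 1 to 3 without single arrays. The replicate number as a block gave 4 calls there, 10 against non-transfected cells, 14 against the negative control and 9 against both. Same-numbered arrays correlated at -0.0262 to 0.205 in their deviations from group means, and differently numbered arrays of other groups at -0.437 to 0.33. These ranges do not settle whether the numbers mark pairs, and the main fit did not take them as pairs. The cytosolic minus mitochondrial difference against the negative control was -0.19 with array weights and -0.26 to 0.0943 without single arrays. Array weights ran from 0.244 to 4.86, from the gene-by-gene method, because the likelihood method could not be brought to convergence. Causes were not tested.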

Other observations

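Genes that make, edit and carry tRNA also moved in both directions. Of 23 measured genes of tRNA processing and export, 4 rose and 2 fell against both controls (26.1%). RPP30, a protein of ribonuclease P, rose (0.57 against the negative control and 0.71 against non-transfected cells), and TSEN34, a catalytic subunit of the tRNA splicing endonuclease, fell (-0.56 and -0.51). RTCB, the tRNA ligase, rose by 1.29 and 0.40, with a log2 fold change of -0.90 between negative control and non-transfected cells. POP4, another ribonuclease P protein, rose by 0.73 and 0.34, and it fell between the controls (-0.39). Of 45 measured tRNA modification genes, 4 rose and 1 fell (11.1%). TRIT1 (0.69 and 0.58), CDK5RAP1 (0.46 and 0.52) and DUS2 (0.43 and 0.73) rose, and ADAT2, of the tRNA adenosine deaminase, fell (-0.51 and -0.45). DUS2 also rose with the control mimic against non-transfected cells (0.30). Of all tested genes 18% changed against both controls.

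Among 13 measured mitochondrial translation factors and tRNA amidation genes, the elongation factors GFM1 (0.35 and 0.43) and GUF1 (0.36 and 0.54) rose against both controls and 0 fell (15.4%). DTD1, which removes D-amino acids from tRNA, fell (-0.48 and -0.65), 1 of 4 measured editing and selenocysteine genes. Of 4 measured elongation factors, EIF5A fell (-0.27 and -0.42), and of 7 genes around eIF2 alpha, the kinase EIF2AK1 fell (-0.33 and -0.42). These pairs give the negative control first and non-transfected cells second. The probe set of EIF5A was dim (4.06 to 4.66, with array medians of 4.22 to 4.34), so its change is poorly measured. The shares changed against both controls were 25% for editing and selenocysteine, 25% for elongation factors and 14.3% around eIF2 alpha. Among all tested genes the share was 18%.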
